A study of Mus musculus with 4 samples.

Results

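Oxidative phosphorylation is carried out in the inner mitochondrial membrane by 4 respiratory complexes, which pass electrons from NADH and succinate to oxygen and pump protons, and by ATP synthase, which uses the proton gradient to make ATP. Most subunits are encoded in the nucleus, translated in the cytosol and imported, and a small core set is encoded by mitochondrial DNA. In immune cells, activation and proliferation place demands on this machinery, and effector T cells, macrophages and dendritic cells are known to differ in how much they rely on respiration or glycolysis. The nuclear genes were taken as all features whose symbol starts with Ndufa, Ndufb, Ndufc, Ndufs or Ndufv (complex I, NADH dehydrogenase), Sdha, Sdhb, Sdhc or Sdhd (complex II, succinate dehydrogenase), Uqcr (complex III, cytochrome bc1), Cox4i, Cox5, Cox6, Cox7 or Cox8 (complex IV, cytochrome c oxidase) or Atp5 (ATP synthase), without Ndufaf assembly factors and pseudogenes. This gave 90 of 31253 features with 89 symbols (2 features are named Atp5o): 38 of complex I, 4 of complex II, 8 of complex III, 18 of complex IV and 18 of ATP synthase. The other 4, Sdhaf1 to Sdhaf4, match by symbol but are assembly factors of complex II, and they are counted as members and kept out of the sums of subunits. Ndufa4 is counted under complex I by its symbol, although its protein is now placed in complex IV.

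The cells were CD45+ immune cells sorted from subcutaneous tumours of MC38, a mouse colon adenocarcinoma line. Per the labels, each mouse received 100000 tumour cells at 8 weeks of age, and the tumours grew for 16 days before collagenase digestion, freezing and thawing. There are 2 libraries labelled WT and 2 labelled cKO of Ufl1, which encodes a UFM1 ligase. Ablation in T cells is named only in the title of the series, and the labels give neither a Cre driver nor the exons removed. Nothing in the labels says that each library came from its own animal, so p-values measure only the spread between these libraries, which may be technical. Throughout, where 4 values are given for single libraries, replicates 1 and 2 labelled WT come first and replicates 1 and 2 labelled cKO after them.

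Each library held 64141857 to 79747752 UMIs (unique molecular identifiers, 1 per captured RNA molecule) in 7352 to 9466 barcodes, and 32396 of 32801 barcodes were kept. In the T-cell gate, Ufl1 itself was at 16.2, 17.1, 15.5 and 19.7 CPM (UMIs of a gene scaled to a library total of 1000000). So cKO replicate 1 stood below both libraries labelled WT, and cKO replicate 2 stood above both. A count outside the deleted exons checks nothing, and which exons were removed is not known here. cKO replicate 2 stood apart in Xist, an RNA of female cells, at 297 CPM against 0.126 to 0.906 CPM elsewhere. The Y-linked gene Ddx3y was at 50.9, 51.0, 47.4 and 0.151 CPM. By these genes, cKO replicate 2 was female and the other libraries male, so sex was not balanced between the labelled genotypes. WT replicate 1 and cKO replicate 2 shared 471 cell barcodes against 84 to 101 in the other pairs of libraries, with a median of 17498 UMIs in the first and 759 in the second. Results without them are given where they differ. A UMI of Ptprc, which encodes CD45, was found in 81.6% to 88.4% of kept cells per library, and the epithelial genes Epcam, Krt8 and Krt18 together were at 7.60 to 9.41 CPM. Cells were gated by UMIs of lineage markers, none of them a member, into 17 exclusive classes that hold 21466 cells, from 215 regulatory T cells (Treg) to 5507 macrophages. Among markers outside the gates, Il2ra was at 804 CPM in Treg and at most 148 CPM in any other class. Cd79b was at 1015 CPM in B cells and at most 24.3 CPM elsewhere. Apoe was at 5044 CPM in macrophages, and its levels in other classes and the other such markers are not given here. Another 9340 kept cells met no gate, so each class is a marker-positive subset.

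The members took 2.08% of the UMIs of all barcodes, and 1.98% to 2.23% of those of kept cells per library. No UMI was found for Cox7b2, Cox8c or the second Atp5o feature, 1 was found for Cox8b, and Ndufa4l2, an alternative form of Ndufa4 known from hypoxic cells, had 27. In the comparison of classes, 83 members passed the filter on low counts together with 10463 genes in all; the others were those 5, Cox4i2 and Cox7a1. Cox6a2 passed the filter through plasmacytoid dendritic cells (pDC), so its calls are not read, although it is 1 of the members counted below as higher in pDC, in NK cells and in macrophages against monocytes. Counts are not divided by transcript length, so each level is compared between classes only. Several members have near-identical processed pseudogenes, between which the authors' counting could have split reads.

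The summed level of all subunits differed 1.68-fold between the lowest and the highest class. B cells were lowest, at 15071, 15788, 15367 and 15307 CPM, a mean of 15383 ± 298 (SD, n = 4). Cycling macrophages were highest, at 25036, 28163, 25977 and 24362 CPM (25885 ± 1657, SD, n = 4), and cycling NK cells were at 25868 ± 1359 CPM (SD, n = 4). In raw CPM the 4 B-cell libraries lay below every library of the other classes, and cycling macrophages and cycling NK cells overlapped each other. Median depth per library was 16446 to 21419 UMIs per cycling NK cell and 5681 to 7581 per other NK cell. It was 11888 to 14264 per cycling T cell and 7348 to 8383 per cycling macrophage. The part of depth in these levels was not tested. In rising order of their means, the classes between were non-classical monocytes (17463 CPM), migratory dendritic cells (DC, 17755), Treg (19322), conventional CD4 T (19374), cDC2 (19467), monocytes (19502), gamma-delta T (20682), macrophages (20918), CD8 T without Pdcd1 UMIs (21226), pDC (22176), NK (23020), cDC1 (23119), CD8 T with Pdcd1 UMIs (23354) and cycling T cells (24225). Pdcd1 encodes the inhibitory receptor PD-1, and CD8 T cells count here as with Pdcd1 at 2 or more of its UMIs and as without it at 0. Next neighbours in that order had overlapping libraries in all but the first step, from B cells to non-classical monocytes.

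The order in between depends on the scale. With TMM, a rescaling of libraries on the assumption that most genes do not differ, most myeloid classes moved up and T cells down. Cycling macrophages did not move up. The means ran from 15608 CPM in B cells, 16619 in Treg and 17936 in conventional CD4 T to 23254 in monocytes, 24069 in macrophages, 24622 in cDC1 and 25478 in cycling macrophages. For complex III with TMM, Treg (1532 CPM) lay below B cells (1566 CPM). In raw CPM computed without mitochondrially encoded and ribosomal protein genes the ends changed: against the mean of the classes, the log2 value of the subunit sum was -0.37 in both non-classical monocytes and migratory DC and -0.32 in B cells, and it was 0.35 in cycling NK cells and 0.23 in cycling macrophages. WT replicate 2 had the highest subunit sum of the 4 libraries in 14 of 17 classes in raw CPM and in 15 of 17 with TMM. The plot of summed levels by complex shows the same libraries for each complex.

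**Figure D1:**
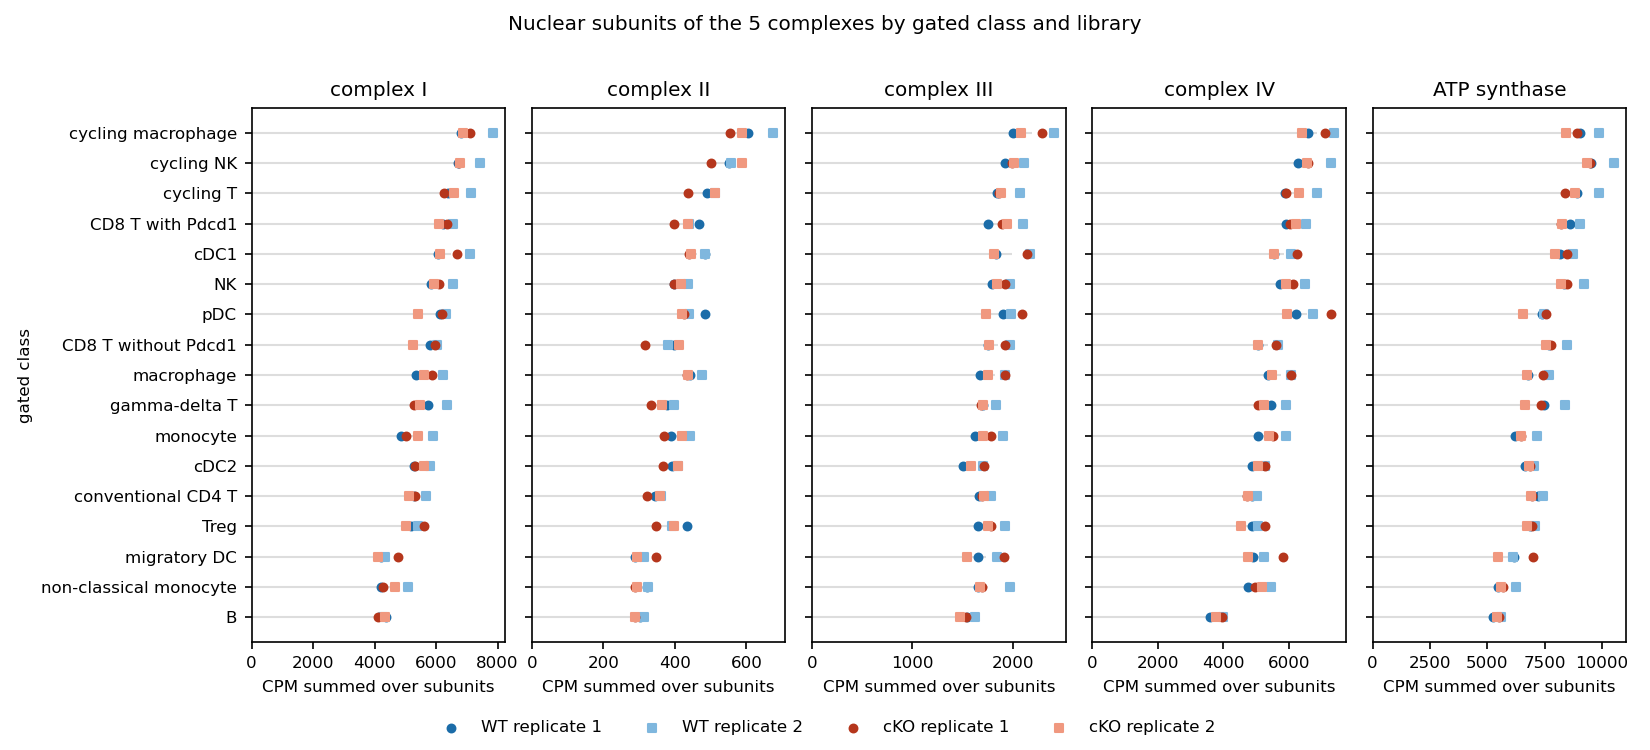
Raw CPM summed over the subunits of each complex and of ATP synthase (x axes, from 0) in the 17 gated classes (y axis), with 1 point per library, coloured by library, and a grey line to the mean. B cells have the lowest mean in each panel, from 298 CPM for complex II to 5440 for ATP synthase, and cycling macrophages have the highest for complexes I to IV.

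By complex, the raw sums spanned 4266 CPM in B cells to 7162 in cycling macrophages for complex I, 298 to 605 for complex II, 1545 to 2196 for complex III and 3834 to 6866 for complex IV, between the same classes. ATP synthase ran from 5440 CPM in B cells to 9723 in cycling NK cells. Complex IV did not follow the others in pDC, which ranked next after cycling macrophages and cycling NK cells there, at 6208, 6736, 7290 and 5937 CPM. Cox6a2 alone supplied 793, 1105, 1543 and 990 CPM of those sums. Of the 2 members per complex with the most UMIs, Cox4i1 (a regulatory subunit of complex IV) ran from 726 CPM in B cells to 1147 in cycling macrophages, and Cox8a from 706 in B cells to 1235 in cycling NK cells. Ndufa13 ran from 215 CPM in B cells to 490 in CD8 T with Pdcd1, Sdhd (a membrane anchor of complex II) from 64.7 in B cells to 155 in cycling macrophages, and Sdhb (its iron-sulphur subunit) from 99.6 in migratory DC to 258 in cycling macrophages. Uqcrq of complex III ran from 138 to 321 CPM between the same classes as Cox4i1, Atp5e from 628 in B cells to 918 in NK cells, and Atp5g2 from 447 in monocytes to 1028 in cycling NK cells. Like Sdhb and Atp5g2, the remaining 2, Ndufa6 and Uqcrh, did not have their low end in B cells. Ndufa6 ran from 246 CPM in cycling NK cells to 541 in cDC2, and Uqcrh from 382 in cDC2 to 711 in CD8 T without Pdcd1.

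Tested gene by gene against the mean of the other classes, B cells had 60 of 83 members lower and 5 higher (edgeR quasi-likelihood test, adjusted p under 0.05), where 23.9% of all genes tested were lower and 27.1% higher. The median log2 difference was -0.46 for the members and -0.01 for all genes. The lower members covered 27 of 37 in complex I, 10 of 13 in complex IV and 15 of 17 in ATP synthase. Ndufc2 of complex I was at 81.2, 91.5, 71.6 and 89.0 raw CPM in B cells and at 330, 390, 319 and 358 in cycling macrophages, and the libraries of the classes did not overlap. Sdha, the catalytic flavoprotein of complex II, was among the 5 higher, with a log2 difference of 0.33 ± 0.07 (SE, adjusted p = 0.00016), as were the assembly factors Sdhaf1 (0.71 ± 0.15, adjusted p = 6.6e-05) and Sdhaf3 (0.75 ± 0.29, adjusted p = 0.029). Median depth per library was 2933 to 3598 UMIs per B cell and 7348 to 8383 per cycling macrophage, and its part in the difference was not tested.

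Cycling macrophages had 63 of 83 members higher and 5 lower than the mean of the other classes, where 32.1% of all genes were higher and 30.4% lower. Ndufc1 and Ndufc2 were among the higher members, with log2 differences of 1.09 ± 0.07 and 1.07 ± 0.07 (SE). The 5 lower ones were Sdhaf1, Ndufa4, Uqcrh, Cox7a2l and Ndufa6, with -1.01 ± 0.16, -0.51 ± 0.09 and -0.48 ± 0.06 for the first 3. The counts were 54 higher and 4 lower in cDC1 (all genes 27.2% and 22.9%), with Ndufa9 at 0.71 ± 0.09 among the higher and Uqcrh at -0.43 ± 0.06 among the lower. Treg had 2 higher and 57 lower (all genes 18.8% and 14.2%) with TMM, and 8 higher and 22 lower (all genes 27.6% and 7.9%) without it. The median of all genes in that comparison was -0.03 with TMM and 0.21 without. The 2 higher in Treg were Sdhaf1 and Sdhaf2.

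Most subunits ranked the classes alike, and a few did not. Over the 17 class means on the TMM scale, which share their 4 libraries, the Spearman correlation of a subunit with the summed level of all subunits had a median of 0.77 over 79 subunits, and 76 were positive. With the subunit itself left out of the sum the median was 0.75 and 76 were positive, and over 7703 other genes the median was 0.02 and 51.2% were positive. Ndufb6, an accessory subunit of complex I, was highest at 0.96, from 81 raw CPM in B cells to 202 in cycling NK cells. At the other end stood Cox7a2l, a supercomplex assembly factor that joins complexes III and IV, at -0.65, Uqcrh, the hinge protein of complex III, at -0.62, and Ndufa6 at -0.03. Cox7a2l was lowest in monocytes (160 raw CPM) and highest in CD8 T without Pdcd1 (294 CPM).

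The promoters of these genes are shown so that the member that follows the sum (Ndufb6), the 2 that run against it (Cox7a2l and Uqcrh) and the assembly factor that stands out in 2 classes (Sdhaf1) can be read side by side. Each is the RefSeq sequence of GRCm38.p6 from 250 bases before to 50 bases after the gene's start, printed along the gene's strand, here always minus. Capitals mark matches on either strand to any of the motifs searched: NRF1 (its 10-letter palindrome with 1 free base), ETS spelled CCGGAAG, YY1 spelled AAGATGGC, SP1 spelled GGGCGG, ERR spelled TCAAGGTCA, CRE spelled TGACGTCA, the E-box spelled CACGTG and TATA spelled TATAAA. Matches of different motifs may overlap.
Ndufb6, chr4:40279372-40279671: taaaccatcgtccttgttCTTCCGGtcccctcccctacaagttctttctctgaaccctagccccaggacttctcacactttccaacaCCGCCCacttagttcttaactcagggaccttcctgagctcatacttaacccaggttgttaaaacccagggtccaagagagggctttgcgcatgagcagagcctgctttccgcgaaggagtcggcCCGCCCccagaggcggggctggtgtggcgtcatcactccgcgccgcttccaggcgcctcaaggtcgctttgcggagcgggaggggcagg
Cox7a2l, chr17:83514284-83514583: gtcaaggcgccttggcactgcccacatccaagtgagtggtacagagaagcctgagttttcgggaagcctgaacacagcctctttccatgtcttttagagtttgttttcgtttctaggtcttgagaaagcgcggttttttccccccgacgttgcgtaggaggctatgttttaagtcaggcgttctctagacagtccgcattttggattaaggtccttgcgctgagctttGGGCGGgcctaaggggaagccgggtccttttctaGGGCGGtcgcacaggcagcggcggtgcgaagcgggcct
Uqcrh, chr4:116075021-116075320: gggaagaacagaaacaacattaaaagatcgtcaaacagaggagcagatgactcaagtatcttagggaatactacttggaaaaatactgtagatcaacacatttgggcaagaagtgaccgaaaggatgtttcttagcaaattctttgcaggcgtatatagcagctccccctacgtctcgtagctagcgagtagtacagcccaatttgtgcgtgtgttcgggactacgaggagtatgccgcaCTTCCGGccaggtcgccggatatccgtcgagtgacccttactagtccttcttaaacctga
Sdhaf1, chr7:30322326-30322625: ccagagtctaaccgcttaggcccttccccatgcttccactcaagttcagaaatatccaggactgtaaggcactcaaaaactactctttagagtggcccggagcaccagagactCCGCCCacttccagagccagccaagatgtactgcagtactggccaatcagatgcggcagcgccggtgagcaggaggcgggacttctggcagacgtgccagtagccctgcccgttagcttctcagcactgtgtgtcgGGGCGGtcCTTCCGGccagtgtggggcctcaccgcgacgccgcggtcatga

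In these windows Ndufb6 and Sdhaf1 hold ETS and SP1 letters, Cox7a2l only SP1 and Uqcrh only ETS. None of the 4 holds the NRF1 letters. NRF1 is a transcription factor known for binding promoters of respiratory chain genes. Of the 73 member symbols with a promoter in the table, 19 (26.0%) held the NRF1 letters, against 12.1% of 8279 genes tested here and 5.19% of all 27025 symbols. ETS letters were in 27.4% of members, 21.9% of tested genes and 9.93% of all, and YY1 letters in 13.7%, 5.60% and 3.19%. ERR letters were in 2.74%, 0.302% and 0.466%, and CRE letters in 5.48%, 3.68% and 2.03%. SP1 letters went the other way, in 45.2% of members and 69.1% of tested genes (38.2% of all). E-box letters were in 8.22%, 11.9% and 8.09%, and TATA letters in 12.3%, 8.67% and 15.7%. The 5 members with the exact palindrome are shown with 10 bases on each side, capitals marking it, printed along the gene's strand.
Atp5g2, chr15:102671070-102671099, minus strand: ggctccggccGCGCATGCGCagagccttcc
Atp5k, chr5:108434430-108434459, minus strand: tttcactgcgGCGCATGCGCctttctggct
Cox6a1, chr5:115349101-115349130, minus strand: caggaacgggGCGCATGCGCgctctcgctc
Ndufa11, chr17:56717692-56717721, plus strand: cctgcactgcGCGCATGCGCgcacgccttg
Uqcrc1, chr9:108936668-108936697, plus strand: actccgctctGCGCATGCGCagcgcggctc

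Cox6a2 was close to restricted to 1 class, and other alternative forms were spread over a few. Cox6a2, the isoform of the complex IV subunit 6a known from heart and skeletal muscle, was at 793, 1105, 1543 and 990 CPM in pDC, with 3337 UMIs, while no other class exceeded a mean of 4.22 CPM (NK cells, 4.27, 4.50, 4.07 and 4.05). In pDC 253 of 355 cells (71.3%, and 63.6% to 81.4% per library) had a Cox6a2 UMI, against 1 of 851 B cells (0.118%) and 57 of 3377 NK cells (1.69%). The part of free RNA in these low shares was not tested. Median depth was 8022 to 8934 UMIs per pDC, 2933 to 3598 per B cell and 5681 to 7581 per NK cell. No cell with a UMI was found among 215 Treg, which allows a share of up to 1.40%, 273 gamma-delta T cells (up to 1.10%), 371 cDC1 (up to 0.809%) or 308 migratory DC (up to 0.974%). These limits cover counting error only, and they bound cells with a UMI, not cells that express the gene. In cycling T cells all 11 Cox6a2 UMIs came from 1 cell of cKO replicate 2.

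Cox4i2, the alternative form of Cox4i1 known from lung and from low oxygen, was highest in the macrophage classes. It was at 7.14, 8.79, 9.69 and 5.69 CPM in macrophages and at 22.6, 8.57, 8.88 and 6.58 in cycling macrophages, against a mean of 1.83 in monocytes and of at most 0.929 in any other class. Of macrophages, 271 of 5507 (4.92%, at a median depth of 6620 to 9616 UMIs per library) had a Cox4i2 UMI, and of B cells 0 of 851, which allows up to 0.353%. It did not pass the filter of the comparison of classes and has no test. Cox7a1 was likewise at its highest in cycling macrophages (a mean of 5.74 CPM) and macrophages (4.29 CPM). The form Cox6b2, known from testis, was at 11.7, 17.2, 10.9 and 13.5 CPM in cDC2, its highest class, and rested on 1 to 5 UMIs in each of Treg, conventional CD4 T, gamma-delta T, CD8 T without Pdcd1 and B cells.

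**Figure D2:**
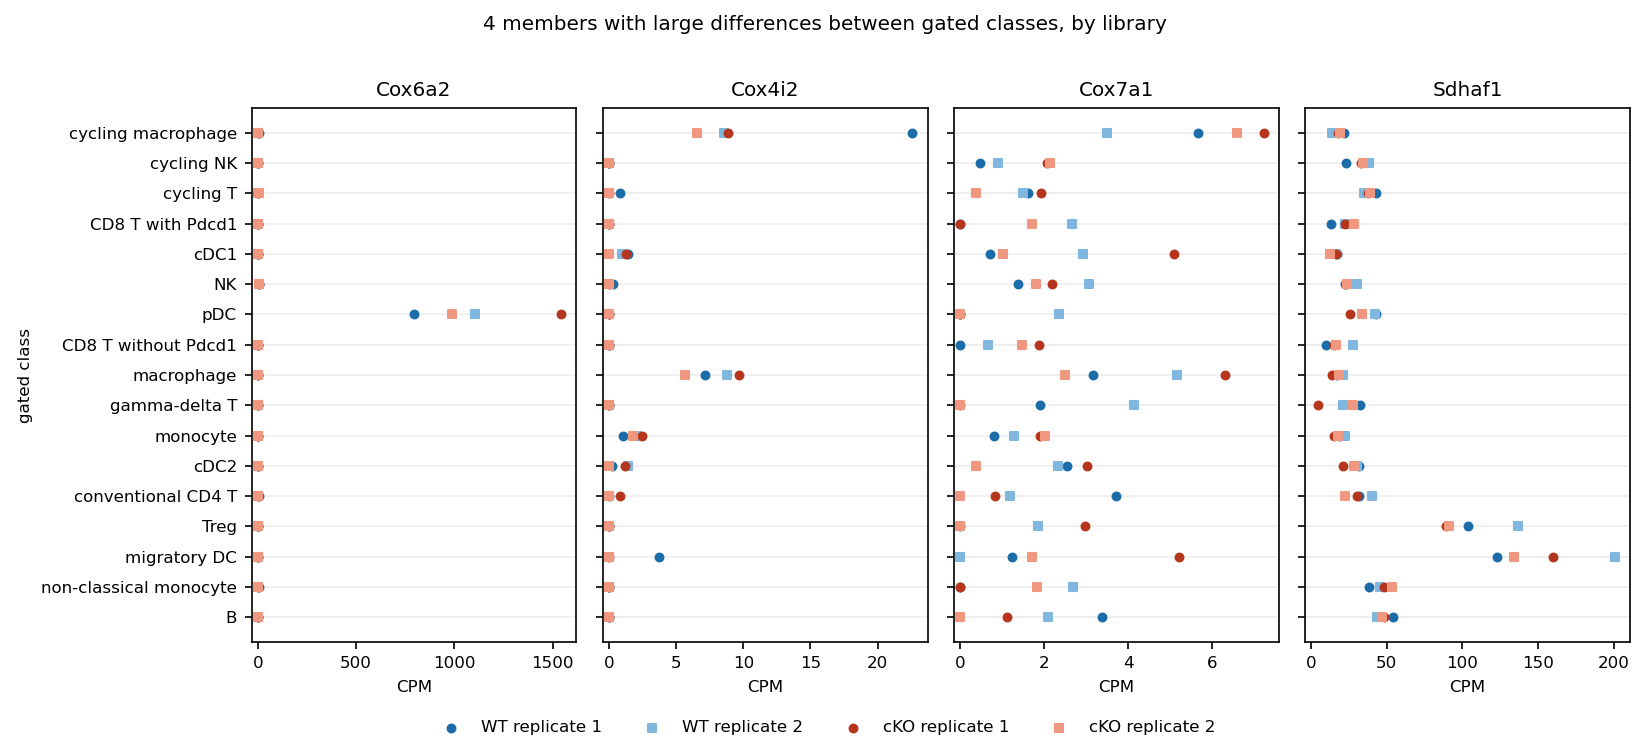
Raw CPM (x axes, linear) of Cox6a2, Cox4i2, Cox7a1 and Sdhaf1 in the 17 gated classes (y axis), with 1 point per library. Cox6a2 lies between 793 and 1543 CPM in pDC, Cox4i2 and Cox7a1 are highest in the macrophage classes, and Sdhaf1 is highest in migratory DC and Treg.

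Sdhaf1, a factor that helps insert iron-sulphur clusters into Sdhb, stood out in migratory DC and Treg. In migratory DC it was at 123, 201, 160 and 134 raw CPM and in cDC2 at 31.5, 30.6, 20.9 and 28.2, so the lowest library of the first was above the highest of the second. The log2 difference was 2.46 ± 0.14 (SE, adjusted p = 9.1e-23). Treg were at 104, 137, 88.9 and 90.8 CPM and conventional CD4 T cells at 31.5, 40.3, 30.4 and 22.3, a log2 difference of 1.68 ± 0.22 (adjusted p = 2.1e-08). Every other class had a mean of 48.2 CPM (B cells) or less.

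Migratory DC, which have taken up the Ccr7 programme of DC on their way to lymph nodes, had 36 of 83 members lower and 8 higher than cDC2, where 27.2% of all genes were lower and 20.6% higher. The median log2 difference was -0.15 for the members and -0.10 for all genes. Complex I held most of the lower members, with 22 of 37 lower and 2 higher and a median of -0.42, while complex IV had 3 lower and 2 higher of 13. Ndufa6 was at 342, 343, 281 and 274 raw CPM in migratory DC and at 530, 550, 538 and 547 in cDC2 (log2 difference -0.78 ± 0.08, SE, adjusted p = 4.3e-12). Atp5g1, which encodes the c ring of ATP synthase, was at 203, 195, 212 and 182 CPM against 332, 365, 320 and 341 (-0.75 ± 0.11, adjusted p = 1.3e-08). Of the other genes for the same c subunit, Atp5g3 was lower (-0.29 ± 0.09, adjusted p = 0.0055), and Atp5g2 had a log2 difference of 0.15 ± 0.09 (adjusted p = 0.19).

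Besides Sdhaf1, the members with the largest differences upwards were Sdhaf2, which attaches FAD to Sdha (37.2, 63.2, 64.3 and 52.7 against 26.2, 23.0, 22.7 and 28.6 CPM, log2 1.09 ± 0.16, adjusted p = 3.3e-08), and Uqcrh. Uqcrh was at 640, 748, 631 and 553 CPM in migratory DC and 352, 409, 403 and 364 in cDC2 (0.77 ± 0.08, adjusted p = 3.6e-13). All 3 were higher in every library of migratory DC than in any library of cDC2. Downwards, Cox6b2 had a log2 difference of -1.43 ± 0.47 (adjusted p = 0.0088) on 12 UMIs in migratory DC, and Sdhaf3 -1.09 ± 0.51 (adjusted p = 0.073). Cox6b2 was highest in cDC2 (11.7, 17.2, 10.9 and 13.5 CPM) and may have passed the filter on low counts through that class. Its call against cDC2 is therefore not read, although it is counted among the lower members. Cox6a2 had 0 UMIs in migratory DC and 25 in cDC2.

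Between pDC and B cells, 49 members were higher in pDC and 7 lower (all genes 24.3% and 22.3%), with 4 to 7 lower when 1 library was left out, and the median was 0.36 against -0.02 for all genes. Complex I had 24 of 37 higher and complex IV 10 of 13. Uqcr11 of complex III was at 219, 207, 262 and 176 raw CPM in pDC and at 67.7, 58.2, 90.6 and 84.7 in B cells (log2 1.32 ± 0.12, SE, adjusted p = 3.0e-14), with no overlap. Ndufs1, the largest subunit of complex I and part of its electron path, was among the 7 lower, on 48 UMIs in pDC and 87 in B cells (-0.94 ± 0.23, adjusted p = 0.00093). The assembly factors Sdhaf3 (-2.09 ± 0.51, adjusted p = 0.00052, 9 UMIs in pDC) and Sdhaf1 (-0.55 ± 0.21, adjusted p = 0.027, and 0.11 without TMM) were lower too. Cox6b2 was at 1.29 ± 0.84 (adjusted p = 0.21), and Cox6a2 had 3337 UMIs in pDC and 1 in B cells.

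Macrophages, identified by complement C1q genes, set against CD8 T cells without Pdcd1 gave 46 members higher and 8 lower (all genes 33.4% and 33.2%), with a median of 0.27 against -0.00. Without TMM the counts were 24 higher and 20 lower (all genes 27.4% and 40.5%), and 24 higher and 8 lower were called under both. Leaving out 1 library gave 4 to 10 lower with TMM. The median of all genes was -0.19 without TMM. Uqcrb of complex III was at 258, 315, 297 and 287 raw CPM in macrophages and 150, 186, 128 and 155 in CD8 T cells (log2 1.10 ± 0.09, SE, adjusted p = 3.7e-16). Among the 8 lower under both scalings were 3 whose libraries did not overlap. Uqcrh was at 393, 431, 447 and 389 CPM against 671, 703, 773 and 695 (-0.57 ± 0.08, adjusted p = 1.2e-09), Cox7a2l at 163, 175, 173 and 163 against 252, 297, 307 and 319 (-0.60 ± 0.09, adjusted p = 3.0e-08), and Ndufa4 at 218, 235, 179 and 226 against 436, 442, 433 and 360 (-0.75 ± 0.12, adjusted p = 8.3e-08). Cox6b2 had 257 UMIs in macrophages against 4 (2.58 ± 0.64, adjusted p = 0.00034), and Cox6a2 had 70 against 1. Cox6b2 may have passed the filter on low counts only through classes where it is high. Its call here is therefore not read, although it is counted among the higher members.

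Compared with monocytes, from which tumour macrophages can arise, macrophages had 19 members higher and 4 lower (all genes 20.8% and 25.7%), 10 of the 19 in complex I, and 1 to 4 were lower when 1 library was left out. Ndufa12 was at 128, 147, 139 and 116 raw CPM in macrophages and 84.6, 86.3, 74.3 and 77.8 in monocytes (log2 0.66 ± 0.09, SE, adjusted p = 3.1e-08). Ndufa5 was at 54.4, 77.2, 77.3 and 55.5 against 34.9, 50.9, 37.8 and 39.9 (0.64 ± 0.09, adjusted p = 3.4e-08). In both genes every macrophage library exceeded every monocyte library. The c-ring genes moved unequally, with Atp5g2 at 0.57 ± 0.09 (adjusted p = 1.9e-07), Atp5g1 at 0.32 ± 0.09 (adjusted p = 0.0028) and Atp5g3 at 0.16 ± 0.08 (adjusted p = 0.10). Cox6a2 had 70 UMIs in macrophages and 28 in monocytes. Lower were Ndufa4 (-0.43 ± 0.11, adjusted p = 0.0011) and Uqcrfs1, the Rieske protein of complex III (-0.24 ± 0.07, adjusted p = 0.0047). Cox6b2 was at -0.69 ± 0.21 (adjusted p = 0.0046), but it may have passed the filter through classes where it is high, monocytes among them. That call is not read, although it is counted among the lower members.

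Cycling macrophages, gated by Mki67, Top2a, Cdk1 and Ccnb1, had 25 members higher and 4 lower than other macrophages (all genes 11.9% and 28.6%), and 61 higher and 0 lower without TMM (all genes 21.3% and 13.4%). Leaving out 1 library gave 17 to 46 higher and 0 to 2 lower with TMM. The median of the members was 0.10 and of all genes -0.18, and without TMM 0.33 and 0.04. Higher counts were 12 of 37 in complex I and 7 of 17 in ATP synthase, and complex II had 3 of 4 subunits higher. Ndufab1, the mitochondrial acyl carrier protein that is also a complex I subunit, was at 221, 302, 228 and 240 raw CPM against 135, 166, 148 and 137 (log2 0.53 ± 0.09, SE, adjusted p = 2.2e-06). Ndufa5 (0.52 ± 0.11, adjusted p = 6.3e-05) and Ndufa12 (0.43 ± 0.10, adjusted p = 0.00030) followed. Uqcrh was lower (-0.26 ± 0.08, adjusted p = 0.0037), which was not called without TMM (-0.04). Sdhaf1 was at -0.29 ± 0.18 (adjusted p = 0.20) and Cox6b2 at -0.42 ± 0.36 (adjusted p = 0.37).

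**Figure D3:**
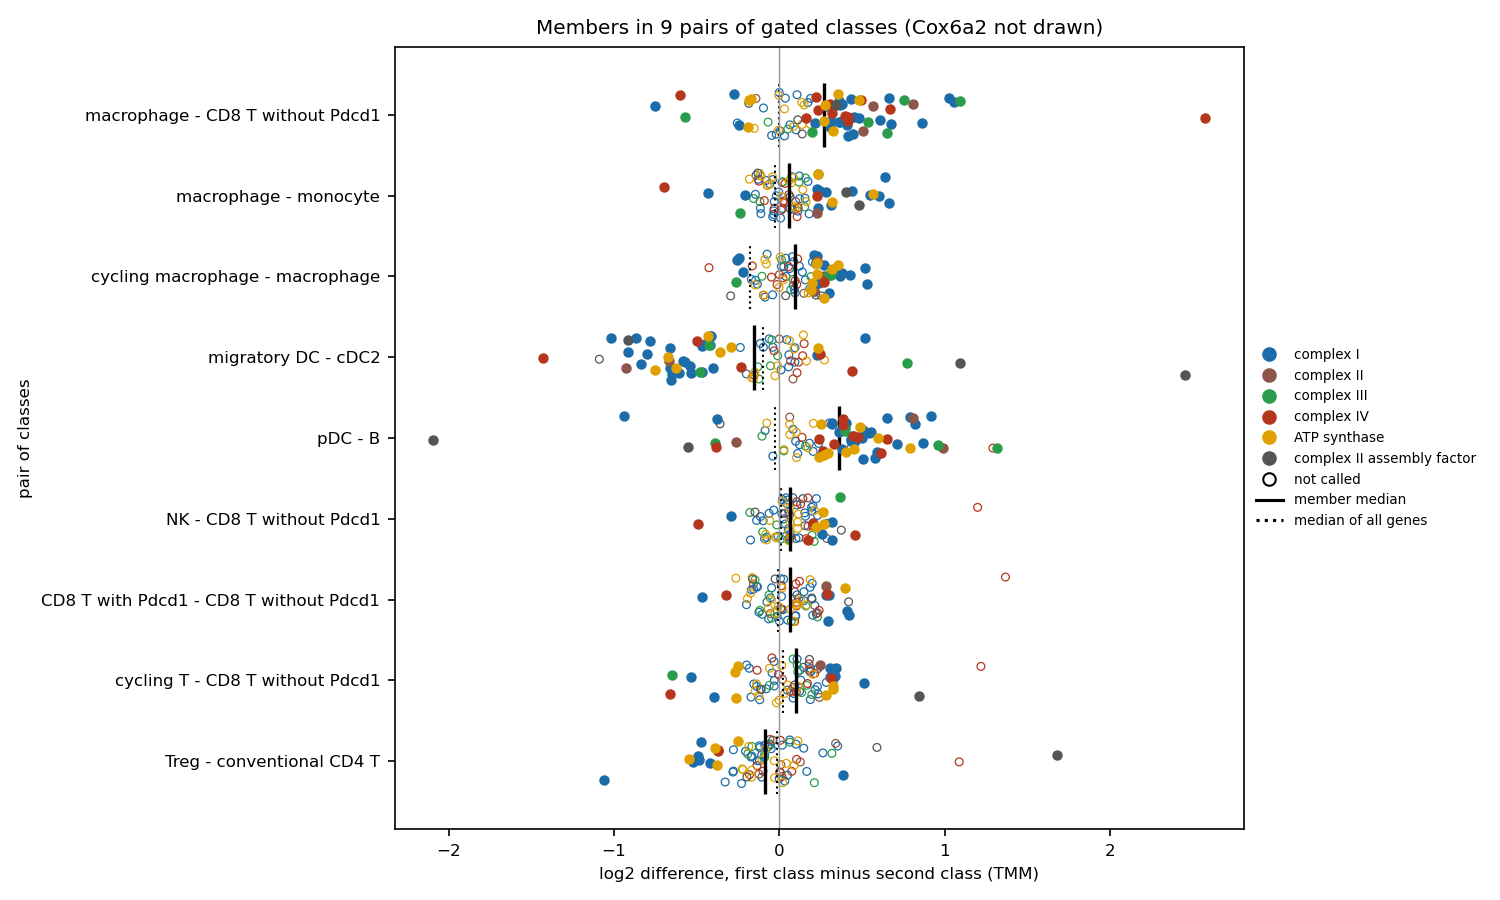
Log2 difference of each tested member except Cox6a2 (x axis, TMM scale, first class minus second) in the 9 pairs of classes (y axis), coloured by complex, filled where the test was passed and open where not. Solid bars are the medians of the members and dotted bars those of all genes, for example 0.36 and -0.02 for pDC against B cells.

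Cycling T cells had 11 members higher and 7 lower than CD8 T cells without Pdcd1 (all genes 15.6% and 13.3%), and 48 higher and 4 lower without TMM (all genes 24.9% and 7.07%), where the median of all genes was 0.20 instead of 0.02. Leaving out 1 library gave 6 to 18 higher and 4 to 6 lower with TMM. The cycling gate took T cells of any lineage, while the other class holds CD8 T cells only. Cycling and the mix of T-cell lineages cannot be told apart in this pair. The lower ones on both scalings included Uqcrh, at 476, 534, 526 and 520 raw CPM against 671, 703, 773 and 695 (log2 -0.65 ± 0.08, SE, adjusted p = 3.2e-10), Cox7a2l (-0.66 ± 0.09, adjusted p = 3.7e-08) and Ndufa6 (-0.53 ± 0.08, adjusted p = 4.9e-07). Sdhaf1 was higher (0.84 ± 0.21, adjusted p = 0.0014), at 42.7, 34.9, 37.8 and 39.2 CPM against 9.97, 27.6, 15.1 and 16.2. Cox6b2 was at 1.22 ± 0.83 (adjusted p = 0.29).

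CD8 T cells with Pdcd1 UMIs had 8 members higher and 2 lower than those without (all genes 8.13% and 8.83%), and 23 higher and 1 lower without TMM (all genes 11.6% and 5.88%). With TMM and 1 library left out, 2 to 4 were higher and 0 to 2 lower. Median depth per library was 6736 to 10227 UMIs per cell with Pdcd1 and 5529 to 7373 per cell without. The smallest library of the class with Pdcd1 held 40 cells. The part of depth in this pair was not tested. Ndufa4 was lower, at 393, 328, 284 and 300 raw CPM against 436, 442, 433 and 360, with 1 library overlapping (log2 -0.47 ± 0.12, SE, adjusted p = 0.0041). Cox7a2l was at -0.32 ± 0.09 (adjusted p = 0.011, and 0.071 without TMM). Values that missed the threshold were 0.42 ± 0.17 for Sdhaf2 (adjusted p = 0.075), -0.26 ± 0.10 for Atp5mpl, a small ATP synthase subunit (adjusted p = 0.072), and 1.37 ± 0.84 for Cox6b2 (adjusted p = 0.30).

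NK cells had 11 members higher and 2 lower than CD8 T cells without Pdcd1 (all genes 13.8% and 13.4%), and 3 to 7 higher and 1 to 2 lower with 1 library left out. Cox7a2 was at 372, 437, 399 and 388 raw CPM against 286, 287, 320 and 252 (log2 0.46 ± 0.08, SE, adjusted p = 7.4e-06), while its relative Cox7a2l was at 217, 202, 207 and 226 against 252, 297, 307 and 319 (-0.49 ± 0.09, adjusted p = 1.1e-05). Neither gene's libraries overlapped. Ndufv3 was lower (-0.29 ± 0.09, adjusted p = 0.015), Uqcrh was at -0.18 ± 0.08 (adjusted p = 0.071) and Cox6b2 at 1.20 ± 0.77 (adjusted p = 0.27). Cox6a2 had 116 UMIs in NK cells and 1 in CD8 T cells without Pdcd1.

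Treg had 2 members higher and 12 lower than conventional CD4 T cells (all genes 6.29% and 6.58%), against 7 higher and 6 lower without TMM (all genes 8.58% and 4.84%). Leaving out 1 library gave 1 to 2 higher and 2 to 10 lower with TMM. The median was -0.09, and 0.01 without TMM. Atp5h of ATP synthase was at 477, 465, 518 and 524 raw CPM in Treg and 727, 758, 568 and 655 in conventional CD4 T cells (log2 -0.55 ± 0.09, SE, adjusted p = 4.5e-06), without overlap. Ndufs1 was lower on 20 UMIs in Treg and 99 in conventional CD4 T cells (-1.06 ± 0.29, adjusted p = 0.014). Sdhaf2 was at 0.59 ± 0.22 (adjusted p = 0.068), Cox6b2 had 1 UMI in each class and Cox6a2 0 and 3. Red-cell genes Hbb-bs and Hba-a1 were at 2234 CPM in the Treg gate of WT replicate 2 and at 0 in its other libraries, and their part in these values was not tested.

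Subunits encoded by mitochondrial DNA moved apart from the nuclear ones. In B cells all 13 were higher than the mean of the other classes (median log2 1.07), as were 27.1% of all genes. The ratio of nuclear to mitochondrially encoded subunit UMIs was 0.598, 0.639, 0.597 and 0.683 in B cells. In pDC the mean ratio was 1.06, in migratory DC 2.37 and in cycling macrophages 2.62 ± 0.40 (SD, n = 4). Of the 13, 11 were lower in pDC than in B cells (22.3% of all genes) and 13 lower in macrophages than in CD8 T cells without Pdcd1 (33.2% of all genes), while none was higher in either pair. The 13 take 0.592% to 0.856% of UMIs in migratory DC and 2.24% to 2.57% in B cells. Cells with over 15% mitochondrial UMIs were left out, and RNA quality, which can move this ratio, was not tested. Of 41 tested assembly factors and carriers, 7 were higher and 14 lower in migratory DC than in cDC2 (all genes 20.6% and 27.2%), and 20 higher and 5 lower in macrophages than in monocytes (all genes 20.8% and 25.7%).

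For the libraries labelled cKO against those labelled WT, no member passed the test in any of 21 overlapping classes, with edgeR or with DESeq2. Of all genes, edgeR called 0.087% in Treg, 0.0474% in cycling NK cells, 0.0177% in gamma-delta T cells, 0.0121% in cycling macrophages, 0.0118% in CD8 T cells with Pdcd1 and 0% in the other classes, and DESeq2 called 0% to 0.0741%. The smallest adjusted p of a member was 0.790 to 1.00 over the classes with edgeR, and 0 to 5 members per class had an unadjusted p under 0.05, as did 1.51% to 6.17% of all genes. In T cells, the cells of the ablation by the series' title, 5 of 83 members had an unadjusted p under 0.05 (edgeR), 0% of all 11119 genes tested passed the adjusted threshold (0% with DESeq2) and 2.36% the unadjusted one.

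The members nevertheless leaned one way in T cells. Of 83, 74 had a negative log2 difference (47.5% of all genes), the median was -0.16 against 0.01 for all genes, and in 41 both libraries labelled cKO lay below both labelled WT (14.5% of all genes), with 0 the other way (16.3%). The size of this lean rested on which WT library was used: WT replicate 2 was the highest library for 70 of the 83 members, against 26.2% of all genes. Without WT replicate 2 the median was -0.07, and without WT replicate 1 it was -0.28. TMM-normalised sums for complex I were 5776, 6663, 5699 and 5579 CPM, for complex IV 5310, 6370, 5352 and 5416, and for ATP synthase 7860, 9088, 7550 and 7520, so that WT replicate 1 lay nearer to both libraries labelled cKO than to WT replicate 2.

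Among the members with the smallest p in T cells were the c-ring genes. Atp5g1 was at 327, 374, 264 and 277 TMM-normalised CPM (log2 -0.38 ± 0.12, SE, adjusted p = 1.00, edgeR), and Atp5g3 at 738, 794, 568 and 644 (-0.34 ± 0.12). Ndufa4 was at 435, 433, 332 and 356 (-0.33 ± 0.11), and Ndufc2 at 159, 191, 131 and 147 (-0.33 ± 0.14). In these 4 both libraries labelled cKO were below both labelled WT. Positive values were fewer and overlapped between groups: Ndufa3 of complex I was at 137, 185, 223 and 152 CPM (0.21 ± 0.21) and Cox7c of complex IV at 340, 482, 533 and 403 (0.18 ± 0.20), both highest in cKO replicate 1. Sdhaf2 (0.13 ± 0.19) and Ndufa2 (0.10 ± 0.15) came next.

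In the T-cell gates, pan-myeloid markers were at 129, 73.2, 88.6 and 65.6 CPM, macrophage markers at 180, 137, 245 and 120, cytosolic ribosomal protein genes at 225906, 249286, 232195 and 221181, cell cycle genes at 329, 243, 298 and 317, and mitochondrially encoded subunits at 15921, 14131, 14777 and 14935. Red-cell genes were at 3.57, 99.4, 90.1 and 1.11 CPM. WT replicate 2, highest for most members, was also highest for ribosomal protein genes and lowest for cell cycle genes and mitochondrially encoded subunits. The part of these in the lean was not tested. The X-linked members, of interest since cKO replicate 2 stands apart in Xist, were Ndufb11 (-0.21 in T cells with and without that library), Cox7b (-0.18 and -0.20) and Ndufa1 (0.00 and 0.11).

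**Figure D4:**
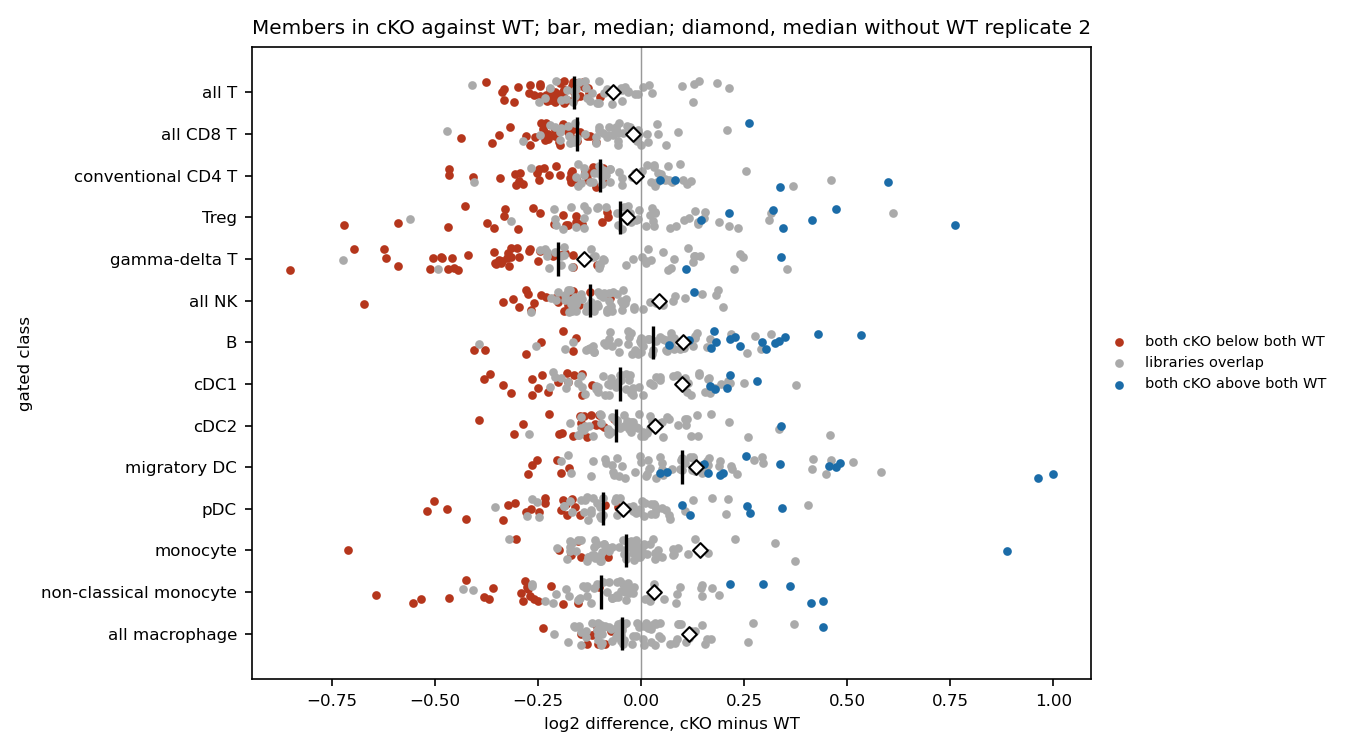
Log2 difference of each tested member between the libraries labelled cKO and WT (x axis) in 14 gated classes (y axis), coloured by whether the 2 groups of libraries overlap, with a bar at the median of the members and a diamond at the median without WT replicate 2. In all T cells 74 of 83 points lie below 0, and in all NK cells the diamond lies at 0.04, on the other side of 0 from the bar.

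Among T-cell classes, the median was -0.20 in gamma-delta T cells, where 60 of 80 members were negative (48.7% of all genes), and -0.17 in cycling T cells, where 73 of 81 were (49.8% of all genes). In all CD8 T cells 73 of 81 were negative (47.8% of all genes), the median was -0.15, and 30 lay below in both libraries labelled cKO (13.6% of all genes). WT replicate 2 was highest for 68 (24.4% of all genes), and without it the median was -0.02. In this gate ribosomal protein genes were at 233906, 265391, 239727 and 231757 CPM, again highest in WT replicate 2. Red-cell genes were at 263 CPM and macrophage markers at 253 CPM in cKO replicate 1, against 0.841 to 2.48 and 82.1 to 104 in the other libraries, and their part was not tested. Ndufa9 (-0.44 ± 0.19), Atp5g3 (-0.34 ± 0.15), Ndufa4 (-0.32 ± 0.14) and Ndufc2 (-0.36 ± 0.16) had the smallest p among the negative members, and Sdhaf2 (0.26 ± 0.19), Cox7c (0.21 ± 0.24), Ndufa3 (0.09 ± 0.23) and Atp5md (0.06 ± 0.20) among the positive ones.

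In conventional CD4 T cells 55 of 80 were negative (50.2% of all genes), with a median of -0.10, and 29 lay below and 4 above without overlap (15.5% and 15.3% of all genes). Atp5k, the e subunit of ATP synthase, was at 49.9, 61.0, 95.6 and 73.3 TMM-normalised CPM there (log2 0.60 ± 0.23, SE). In Treg it was at 45.3, 64.6, 102 and 94.5 (0.76 ± 0.33), so both libraries labelled cKO were the higher in each class, and the adjusted p was 1.00 in each (edgeR). In conventional CD4 T cells Cox7c (0.37 ± 0.19), Ndufa3 (0.46 ± 0.25) and Atp5mpl (0.25 ± 0.20) followed. Ndufs5 was at 148, 146, 93.1 and 121 CPM (-0.47 ± 0.19), with Cox5a (-0.34 ± 0.15), Ndufs8 (-0.41 ± 0.19) and Atp5h (-0.30 ± 0.15) next. In Treg, which rest on 29 to 97 cells per library, 49 of 78 were negative (50.2% of all genes) with a median of -0.05, which was 0.00611 with stricter gates. Macrophage markers were at 288, 201, 50.4 and 83.8 CPM in this gate, lower in both libraries labelled cKO, and the red-cell genes at 2234 CPM in WT replicate 2 stand here too. The part of both was not tested. Ndufs5 (0.47 ± 0.30), Ndufa2 (0.41 ± 0.26) and Atp5e (0.31 ± 0.24) were positive there, and Sdhc (-0.72 ± 0.43), Ndufs8 (-0.56 ± 0.34), Sdhaf1 (-0.47 ± 0.29) and Sdhaf2 (-0.59 ± 0.40) negative.

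In all NK cells 72 of 84 were negative (51.3% of all genes) with a median of -0.12, but the median was 0.04 without WT replicate 2, which was highest for 74 members (33.2% of all genes). There Atp5g3 was at 817, 1012, 714 and 735 TMM-normalised CPM (-0.33 ± 0.15, SE), followed by Ndufa4 (-0.28 ± 0.13), Atp5g1 (-0.31 ± 0.15) and Uqcrb (-0.26 ± 0.13). The positive ones were Cox7c (0.18 ± 0.17), Ndufa3 (0.20 ± 0.19), Sdhaf2 (0.13 ± 0.14) and Ndufa1 (0.11 ± 0.15). In all macrophages 52 of 85 were negative (50.9% of all genes) with a median of -0.05, and 0.12 without WT replicate 2. Atp5g1 (-0.24 ± 0.17), Sdhaf1 (-0.21 ± 0.19), Ndufv1 (-0.15 ± 0.14) and Ndufa4 (-0.16 ± 0.17) led one side there, and Ndufa3 (0.37 ± 0.26), Cox6a2 (0.44 ± 0.36), Cox7c (0.26 ± 0.23) and Ndufa1 (0.16 ± 0.16) the other.

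Monocytes had 61 of 84 negative (51.8% of all genes) and a median of -0.04, which was 0.14 without WT replicate 2. Sdhaf3 was at 5.49, 5.97, 3.34 and 3.64 TMM-normalised CPM there (log2 -0.71 ± 0.21, SE, adjusted p = 0.97, edgeR), followed by Atp5g1 (-0.30 ± 0.15), Sdhaf1 (-0.32 ± 0.18) and Ndufa12 (-0.17 ± 0.12). Positive were Cox7a1 (0.89 ± 0.39, under 2.1 CPM in each library), Ndufa3 (0.33 ± 0.24), Cox7c (0.23 ± 0.21) and Cox4i2 (0.37 ± 0.44). Ndufa3 and Cox7c were highest in cKO replicate 1 in T cells, CD8 T cells, conventional CD4 T cells, NK cells, macrophages and monocytes alike. B cells and migratory DC had positive medians, 0.03 and 0.10.

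**Figure D5:**
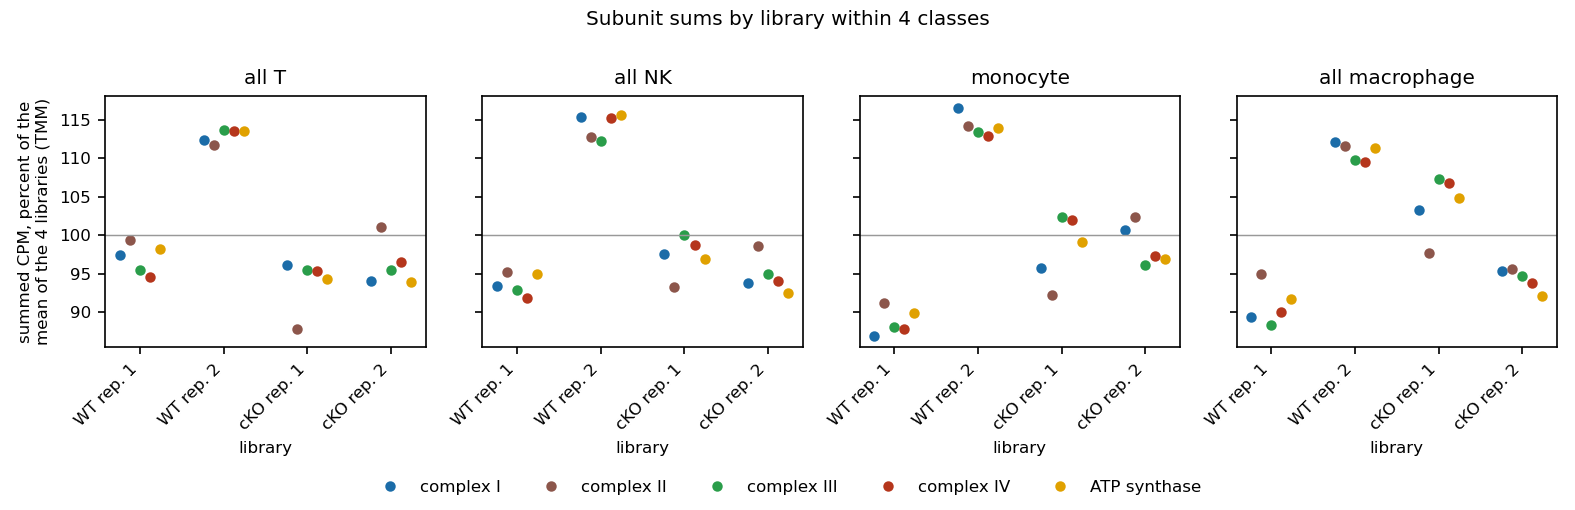
TMM-normalised CPM summed over the subunits of each complex, as a percentage of the mean of the 4 libraries (y axis), by library (x axis) in all T cells, all NK cells, monocytes and all macrophages, with 1 point per complex. WT replicate 2 stands above 100% for every complex in all T cells, where its complex I sum of 6663 CPM compares with 5579 to 5776 in the other libraries.

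Whether the difference between the labelled genotypes itself differed between T cells and macrophages was tested in 1 model over both classes, in which each library had its own term. No member passed (0 of 85, with 0 at an unadjusted p under 0.05, and 0% of 12274 genes adjusted and 2.56% unadjusted), although 83 of 85 values were more negative in T cells (55.1% of all genes) and the median was -0.16 against -0.03 for all genes. Without cKO replicate 1 the median was -0.09 and 19 of 85 were positive, and the medians without each of the others ran from -0.23 to -0.11. Between all CD8 T cells and Treg, 0 of 81 members passed and 1 had an unadjusted p under 0.05, while 0.0919% of all genes passed and 3.21% had such an unadjusted p. The median there was -0.12 against -0.01 for all genes, and leaving out cKO replicate 1 gave -0.03, WT replicate 2 -0.04, cKO replicate 2 -0.09 and WT replicate 1 -0.17. A DESeq2 fit of these differences was not run.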

How the data were processed

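Single-cell RNA was measured with a droplet kit in 4 libraries of CD45+ tumour cells, 2 per labelled genotype. The authors deposited raw UMI counts per gene and barcode, made with Cell Ranger 6.1.1 per the file headers. CASAVA 1.8, Cell Ranger and Seurat are named in the submitters' processing notes, and the genome build is not given in the sources used here. All later steps started from these counts. Barcodes under 300 genes or over 15% mitochondrial UMIs were left out. Cells were gated on UMIs of marker genes, with thresholds set on marker distributions before any test between genotypes, and no member served as a marker. Gates that exclude other lineages were the sole treatment of doublets, and no caller was run.

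Counts were summed per class and library, for classes with at least 20 cells per library, and compared by the quasi-likelihood test of edgeR 4.0.16, run in R 4.3.3 (TMM, filterByExpr, Benjamini-Hochberg over all genes tested, adjusted p under 0.05). Genotype was tested within each class, and classes were tested in 1 model with library as a term, as contrasts of each class with the mean of the others and as 9 pairs. DESeq2 1.42.0 was an alternative. Sums per complex are descriptions. The scripts were tested on simulated data. Members, gene lists and pairs were chosen with earlier results of these data known. Genes named in a genotype comparison are the 4 with the smallest p in each direction. In a pair they are the 3 largest log2 differences in each direction, besides the isoform genes, and for levels the 2 members of each complex with the highest mean CPM. Among the genes chosen by these rules, 1 is not reported here. Promoters are from RefSeq (GRCm38.p6), where 73 of 89 symbols matched.

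Each library held 64141857 to 79747752 UMIs. Alternatives were DESeq2, no TMM, no filter, stricter gates, leaving out mitochondrial and ribosomal protein genes, each library in turn and a replicate block. Leaving out shared barcodes, a crossed block and TMM for the summed levels were chosen after seeing the data. In T cells, deviations of the 2 replicate 1 libraries from the means of their groups had a correlation of 0.21. With 2 libraries per group, those of replicate 2 mirror them, so the value rests on 1 pair only.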

Additional observations from a re-analysis of the deposited data

How the results depend on the processing

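No member passed the test between labelled genotypes under any alternative run. With a replicate block, 18 of 83 members had an unadjusted p under 0.05 in T cells (6.11% of all genes) and 15 of 81 in cycling T cells (5.71% of all genes), 0 passed, and 1 gene of all passed in NK cells. A crossed replicate block in macrophages, chosen after seeing a correlation of -0.18, gave 0 members called and 1 at an unadjusted p under 0.05. Of all genes, DESeq2 called 1 in CD8 T cells, 2 in NK cells and 2 in macrophages, and testing without the filter on low counts called 57 in T cells, 48 in CD8 T cells, 53 in NK cells and 77 in macrophages. With 1 library left out, where the lone library is assumed to vary like the others, all-gene calls ran from 2 to 10 in T cells, 0 to 10 in CD8, 0 to 40 in NK and 0 to 29 in macrophages.

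Medians of the members then ran from -0.285 to -0.0692 in T cells, -0.271 to -0.0208 in CD8, -0.153 to -0.0116 in conventional CD4 T, -0.113 to -0.0336 in Treg, -0.296 to 0.0427 in NK cells and -0.168 to 0.115 in macrophages. With stricter gates the Treg median was 0.00611. Leaving out 1 library, log2 differences ran in T cells from -0.0858 to 0.464 for Ndufa3, -0.0691 to 0.456 for Cox7c, -0.0975 to 0.401 for Sdhaf2 and -0.0664 to 0.248 for Ndufa2. In CD8 T cells they ran from -0.0910 to 0.557 for Cox7c, -0.246 to 0.376 for Ndufa3 and -0.153 to 0.256 for Atp5md. In NK cells they ran from -0.00725 to 0.373 for Cox7c, -0.0933 to 0.443 for Ndufa3 and -0.0332 to 0.256 for Ndufa1. In macrophages they ran from -0.0682 to 0.527 for Cox7c and -0.00873 to 0.308 for Ndufa1, and in monocytes from -0.0161 to 0.445 for Cox7c and -0.0558 to 1.04 for Cox4i2.

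Without TMM, the members called were 23 higher and 1 lower for CD8 T with against without Pdcd1 (median 0.163), 17 higher for NK, 7 higher and 6 lower for Treg against conventional CD4 T (0.0134), 8 and 22 for Treg against the mean, 48 and 4 for cycling T (0.285), 61 and 0 for cycling macrophages (0.327), 24 and 20 for macrophages against CD8 T (0.0661) and 4 lower for pDC. Stricter gates gave 1 higher and 2 lower for Treg against conventional CD4 T (-0.0322, Cox6a2 0.0690), 1 higher for Treg against the mean, 39 and 0 for cycling macrophages (0.268), 4 lower for macrophages against CD8 T and 1 lower against monocytes. Leaving out mitochondrial and ribosomal protein genes gave 2 lower for cycling macrophages and 5 lower for macrophages against CD8 T. Without shared barcodes there were 1 higher for Treg and 2 lower for cDC1 against the mean, 45 and 0 for cycling macrophages (0.247) and 3 lower for macrophages against CD8 T (0.356), and Cox6a2 in cycling T was at -2.63. The cause was not tested. Shares of all genes called are not given for the stricter gates, the left-out genes or the left-out barcodes. They are also not given for NK and pDC without TMM, or for fits with 1 library left out. Whether those counts of members moved with all genes is therefore not known here.

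With 1 library left out, members called ran from 2 to 6 higher in B cells, 2 to 4 higher and 0 to 2 lower for CD8 T with Pdcd1, 3 to 7 and 1 to 2 for NK, 1 to 2 and 2 to 10 for Treg against conventional CD4 T (Cox6a2 -4.82 to 0.0316), 1 to 2 higher for Treg against the mean and 2 to 3 lower for cDC1. They ran from 6 to 18 higher and 4 to 6 lower for cycling T (Cox6a2 -3.22 to 5.00), 17 to 46 and 0 to 2 for cycling macrophages (median 0.140 to 0.307, Sdhaf1 -0.317 to 0.0622), 4 to 10 lower for macrophages against CD8 T (0.194 to 0.333), 1 to 4 lower against monocytes and 4 to 7 lower for pDC.

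The subunit sum against the mean of the classes (log2) was, with TMM, 0.0442 for CD8 T with Pdcd1, -0.242 for conventional CD4 T, -0.352 for Treg, 0.00942 for cycling T, 0.186 for cycling NK, 0.0377 for cDC2, -0.0709 for migratory DC, -0.0533 for pDC, 0.133 for monocytes, -0.138 for non-classical monocytes and 0.183 for macrophages. Without mitochondrial and ribosomal protein genes it was 0.220 for CD8 T with Pdcd1, 0.173 without, -0.190 for Treg, 0.207 for NK, -0.316 for B, -0.183 for cDC2, -0.254 for monocytes, -0.371 for non-classical monocytes and -0.116 for macrophages.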

Other observations

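Genes around the respiratory chain were described from fixed lists. Mitochondrial ribosomal proteins, which make the mitochondrially encoded subunits, had 42 of 77 tested members higher and 2 lower in macrophages than in monocytes (all genes 20.8% and 25.7%). In migratory DC 34 were lower and 7 higher than in cDC2 (27.2% and 20.6%), and in cycling macrophages 29 were higher and 1 lower than in other macrophages (11.9% and 28.6%). Of 13 genes of the citric acid cycle, which feeds NADH and succinate to the chain, 7 were lower and 0 higher in migratory DC than in cDC2. Idh3a, a subunit of isocitrate dehydrogenase, had a log2 difference of -1.83 ± 0.26 there (SE, edgeR adjusted p = 2.4e-08), and Cs, citrate synthase, -0.55 ± 0.11. Of 15 tested glycolysis genes, 10 were higher and 1 lower in CD8 T cells with Pdcd1 than without (8.13% and 8.83% of all genes), and 8 were lower and 1 higher in migratory DC than in cDC2. Of 12 tested regulators of mitochondrial biogenesis, 8 were lower and 1 higher in macrophages than in CD8 T cells without Pdcd1 (33.2% and 33.4% of all genes).

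In T cells of the libraries labelled cKO, none of these lists had a gene called, and 69 of 78 mitochondrial ribosomal protein genes, 12 of 13 citric acid cycle genes and 12 of 15 glycolysis genes had a negative log2 difference (47.5% of all genes). Among 7703 other genes, those whose class means ranked most like the complex I sum over the 17 classes, which share libraries and depth, were Mrps14 (Spearman 0.95), Stoml2 (0.95), Prpf31 (0.94), Uqcc2 (0.93) and Pfdn4 (0.93).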
